A study of Mus musculus with 4 samples.

Results

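The lymphocytes and monocytes of the mouse pituitary were compared between 2 ages, weaning (3-week) and young adulthood (8-week). Glands of male C57BL/6N mice had been dissociated, live CD45+ cells (CD45 marks leukocytes) sorted, and droplet single-cell RNA libraries made, 1 at each of 4 ages. The 3-week and 8-week libraries are compared here, and the newborn and 1-week libraries give context. The number of animals behind a library, and whether glands were taken whole or as separate anterior and posterior parts, is not given per library in the labels.

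A barcode (the tag of 1 droplet, taken here as 1 cell) belonged to the set when it had at least 1500 UMIs (counted RNA molecules), under 10% of them mitochondrial, and fewer than 10 UMIs of C1qa, C1qb and C1qc together, which are complement genes of resident macrophages. It was then placed in the first lineage whose rule it met: B cells by 3 or more UMIs of Cd79a and Cd79b, T cells by 2 or more of Cd3d, Cd3e and Cd3g, natural killer (NK) cells by 2 or more of Ncr1 and Klrb1c, and Csf1r-positive cells by 1 or more of Csf1r, the receptor for a growth factor of monocytes. The 4 lineages held 5717 cells, 2770 at 3-week and 2947 at 8-week, of 13956 barcodes in the 4 libraries. The C1q limit fell in a sparse range: 64 barcodes at 3-week and 54 at 8-week had 5 to 9 such UMIs, and 10 and 26 had 10 to 14.

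B cells recognise antigen through the B cell receptor and mature from bone marrow precursors through immature cells that still carry precursor transcripts. T cells and NK cells kill or instruct other cells, and both leave tissues along gradients of sphingosine-1-phosphate. Classical monocytes are short-lived blood cells marked by Ly6c2 and Ccr2 that can enter tissue, while non-classical monocytes patrol vessels. In many of these lineages a fetal programme, in which the RNA-binding proteins Lin28b and Igf2bp3 take part, is switched off after birth.

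No age was replicated, so age cannot be told apart from any other difference between the 2 libraries, and no test of age was possible. Raw counts were summed over the cells of a lineage and scaled to a total of 1000000 per lineage and library (CPM). Ratios of CPM are 8-week over 3-week with exact conditional 95% Poisson intervals, and shares carry exact (Clopper-Pearson) 95% intervals. Both cover counting error only. A gene counted as measured in a lineage when either library reached 10 CPM. It was past 2-fold when its ratio was at least 2-fold either way with an interval that excluded 1; "rose" and "fell" are used only for such genes. As these are pooled counts, fewer cells with a transcript and less of it per cell cannot be told apart from a sum.

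The 3-week and 8-week libraries held 43912505 and 69455826 UMIs in 4767 and 6840 barcodes. Of the barcode sequences, 364 occurred in both, against 1 to 9 for the other pairs of libraries, and of these the copy with more UMIs was kept. That left 33 such cells among the 2770 at 3-week and 6 among the 2947 at 8-week, but they were unevenly placed: at 3-week, 8 of 190 Csf1r-positive cells held 15.4% of that lineage's UMIs, against 5.69% for 13 T cells, 2.92% for 11 B cells and 0.455% for 1 NK cell. Values without these barcodes are therefore given beside the results that rest on them, and counts are also given without, for each gene and library, the barcode with the most UMIs of that gene. The second of these was added after the data had been seen.

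Marker lists were set beside the lineage rules. The lists include the rule genes themselves, so their levels in and outside a lineage are fixed in part by the rules. All 10 B cell markers were measured in the B lineage, with a summed level of 11833 CPM at 3-week and 10034 at 8-week, against 145 to 272 CPM at 3-week in the other 3 lineages. All 12 T cell markers were measured in T cells (5011 and 4685 CPM) and all 10 NK cell markers in NK cells (15588 and 15349 CPM). At 3-week the T cell list summed to 326, 685 and 44.3 CPM in B, NK and Csf1r-positive cells. The NK cell list was less exclusive, at 457, 1895 and 3614 CPM in B, T and Csf1r-positive cells. In Csf1r-positive cells all 12 monocyte markers were measured, but the class was mixed. After each cell was thinned to 1500 UMIs, 31.6% (interval 25.04 to 38.7) of its cells at 3-week and 55.2% (interval 49.6 to 60.7) at 8-week had a UMI of the classical monocyte genes Ly6c2, Ccr2, Chil3 or F13a1, 45.8% and 36.5% one of the non-classical monocyte genes Ace, Treml4 or Cd300e, and 12.6% and 15.3% one of 6 dendritic cell genes. It is therefore called by its rule, Csf1r-positive cells.

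B cells made up a smaller share of these leukocytes at 8-week, and NK, T and Csf1r-positive cells a larger one. B cells were 56.7% (interval 54.8 to 58.5) of 2894 barcodes without high C1q at 3-week and 34.2% (interval 32.6 to 35.9) of 3112 at 8-week. NK cells went from 9.36% (interval 8.33 to 10.5) to 19.1% (interval 17.8 to 20.5), T cells from 23.1% (interval 21.6 to 24.7) to 30.9% (interval 29.3 to 32.5), and Csf1r-positive cells from 6.57% (interval 5.69 to 7.53) to 10.5% (interval 9.42 to 11.6). None of the 4 pairs of intervals overlapped. Shares within a library add to a fixed total, so a smaller B cell share by itself makes the others larger. At 3-week and 8-week there were 1640 and 1065 B, 669 and 961 T, 271 and 595 NK, and 190 and 326 Csf1r-positive cells. A change in the number of cells of any lineage in the gland was not tested. Median depth per cell was 5461 and 5932 UMIs in B cells, 7752 and 8654 in T cells, 6932 and 7671 in NK cells, and 8561 and 13221 in Csf1r-positive cells, and the rules find more cells at higher depth. With the rules applied after thinning every barcode to 1500 UMIs, the B cell share was 51.2% and 29.4%, T 17.9% and 22.9%, NK 6.91% and 14.4%, and Csf1r-positive 4.15% and 5.69%.

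**Figure D1:**
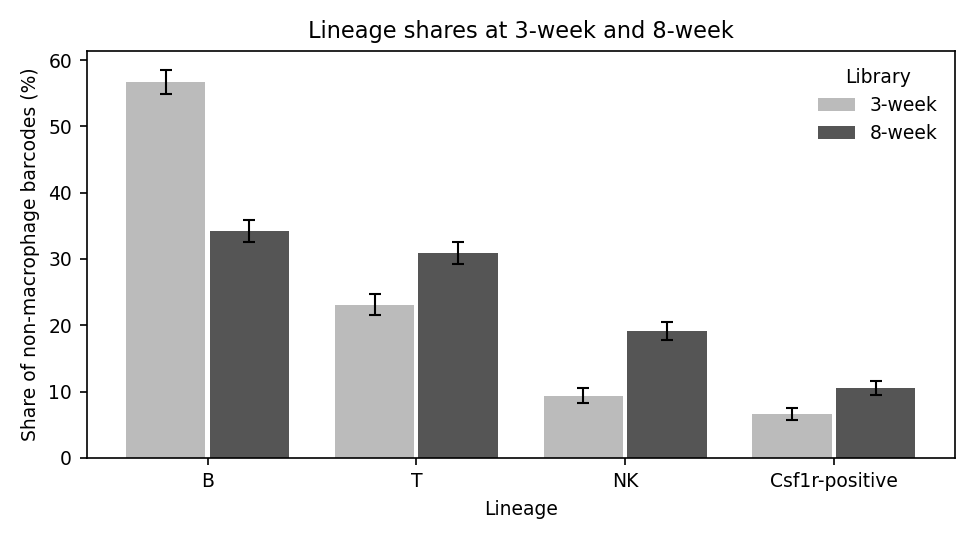
Bars give the share of each lineage among barcodes without high C1q (%), at 3-week (light) and 8-week (dark), and error bars exact 95% binomial intervals. The B cell share was 56.7% at 3-week and 34.2% at 8-week, and the other 3 lineages had larger shares at 8-week.

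Few genes passed 2-fold in the lymphocytes. In B cells 25 of 8382 measured genes were higher at 8-week (0.298%) and 52 lower (0.62%). In T cells 41 of 8314 were higher (0.493%) and 21 lower (0.253%). NK cells had 111 of 8443 higher (1.31%) and 50 lower (0.592%). Csf1r-positive cells stood apart in 1 direction, with 83 of 8607 higher (0.964%) and 483 lower (5.61%), though leaving out the shared barcodes brought the last count to 183, of which 133 were among the 483.

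How broadly a call was carried differed between lineages. Of the 483 lower genes in Csf1r-positive cells, 127 were seen in 5 or fewer cells at 3-week and in 112 a single cell gave at least 50% of the UMIs. Among 52 lower genes in B cells those numbers were 1 and 6, and 45 were past 2-fold in all 3 settings, that is with every cell, without shared barcodes and without each gene's top barcode. All 3 settings held 9 of 25 genes that rose in B cells, 30 of 41 and 14 of 21 that rose and fell in T cells, 73 of 111 and 19 of 50 in NK cells, and 48 of 83 and 111 of 483 in Csf1r-positive cells. B cells thus kept mostly falls (45 against 9 rises), while T and NK cells kept mostly rises.

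**Figure D2:**
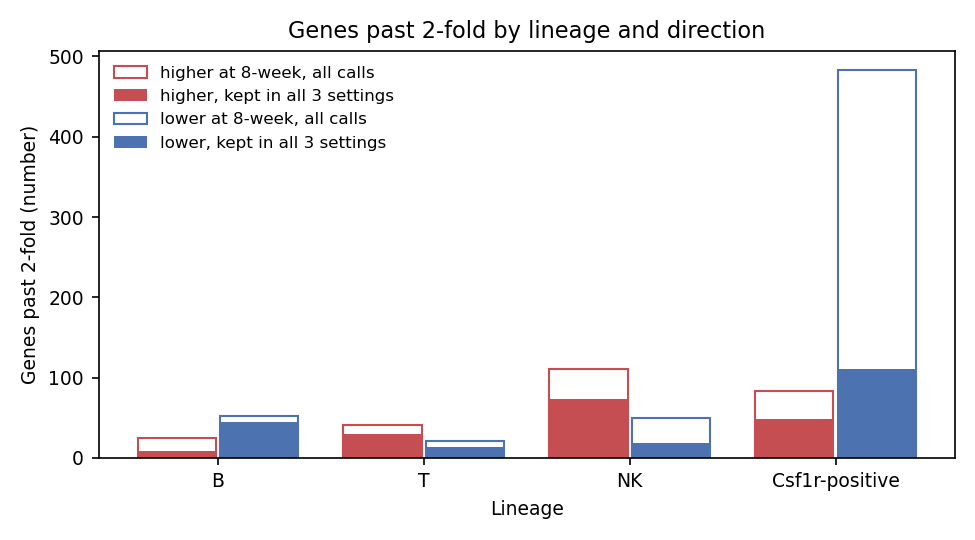
Bars give the number of genes past 2-fold in each lineage, higher (red) and lower (blue) at 8-week; filled parts are genes past 2-fold also without shared barcodes and without each gene's top barcode. The tall open bar is the 483 lower genes of Csf1r-positive cells, of which 111 are filled.

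Changes shared by the lineages were rarer still. Of 6965 genes measured in all 4 lineages, 0 rose in 3 or 4 of them (0%) and 4 fell (0.0574%); 60 rose and 154 fell in 1 lineage, and 14 rose in one lineage and fell in another. Of 7879 genes measured in at least 3 lineages, 0 rose in 3 or more (0%) and 6 fell (0.0762%): Igf2bp3, Sox4, Ly6d, Cd79a, the haemoglobin gene Hbb-bs and the predicted gene Gm47283. Cd79a is a gene of the B cell rule, so its value is fixed in part by the rule. The lineages share the same 2 libraries, so agreement between them is not independent support for an effect of age.

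Igf2bp3 (chromosome 6, 49085223 to 49214957, minus strand, mm10) stayed past 2-fold in 3 lineages in all 3 settings, as did Cd79a and Hbb-bs. It encodes an RNA-binding protein that stabilises transcripts in fetal blood stem and progenitor cells. In B cells it stood at 36.4 CPM at 3-week (383 UMIs in 288 cells) and 17.1 CPM at 8-week (129 UMIs in 110 cells), 2.13-fold lower (interval 1.74 to 2.62). In T cells it fell from 26.7 to 9.20 CPM, 2.91-fold (interval 2.22 to 3.83), and in Csf1r-positive cells from 24.4 to 6.37 CPM, 3.82-fold (interval 2.35 to 6.35). NK cells held 9.07 CPM (19 UMIs) at 3-week and 9.74 CPM (49 UMIs) at 8-week, a ratio of 1.07 (interval 0.621 to 1.93), and were below the measured level at both ages.

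For Igf2bp3 in summed counts the difference between lineages was larger than counting error in some pairs. The log2 ratio of ratios was -1.17 (interval -1.97 to -0.36) for B against NK and -1.62 (interval -2.46 to -0.77) for T against NK, but 0.45 (interval -0.03 to 0.93) for B against T. At equal depth NK cells were not set apart. After thinning, 2.95% (interval 1.28 to 5.73) of NK cells at 3-week and 1.01% (interval 0.371 to 2.18) at 8-week had an Igf2bp3 UMI. The shares were 4.94% and 2.82% in B cells and 2.69% and 1.56% in T cells. Levels were higher in the earlier libraries. At newborn and 1-week, Igf2bp3 was at 122 and 78.6 CPM in B cells, 120 and 77.2 in T cells and 105 and 77.4 in Csf1r-positive cells. In high-C1q macrophages of the same libraries it was 121, 70.5, 59.1 and 48.6 CPM, so the 4 cell classes began close together at newborn and lay apart at 8-week, with macrophages highest. Its upstream partner Lin28b was at 28.2 CPM in newborn B cells and at 2.00, 0.285 and 0.133 CPM after that, with 3 UMIs at 3-week and 1 at 8-week, too few for a ratio.

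Sox4 and Ly6d met the shared rule on a narrower footing. Sox4 (chromosome 13, 28948919 to 28953713, minus strand), a transcription factor needed in early B and T cell development, fell in B cells from 97.3 to 47.8 CPM, 2.04-fold (interval 1.81 to 2.3), and in T cells from 17.8 to 7.92 CPM, 2.25-fold (interval 1.66 to 3.08). In Csf1r-positive cells it went from 29.7 to 4.95 CPM, but its 61 UMIs at 3-week lay in 8 cells, and without shared barcodes it was 2.88 and 4.29 CPM, a ratio of 1.49 (interval 0.534 to 5.14). Ly6d, a surface protein of B cells and their progenitors, fell in NK cells from 28.6 to 2.98 CPM and in T cells from 14.4 to 2.46 CPM, while in B cells themselves it was at 1833 and 1296 CPM. In Csf1r-positive cells 77.7% of Ly6d UMIs at 3-week came from 1 cell, and without shared barcodes the gene was higher at 8-week, at 7.48 and 23.6 CPM.

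B cell marker sums outside the B lineage were also lower at 8-week. They went from 233 to 217 CPM in T cells, 272 to 231 in NK cells and 145 to 105 in Csf1r-positive cells. Of the measured B cell markers, 3 of 4 fell in T cells (Cd79a, Cd79b and Ebf1), 2 of 3 in NK cells (Cd79a and Cd79b) and 2 of 4 in Csf1r-positive cells (Cd79a and Ebf1). Cd79a and Cd79b are genes of the B cell rule, which caps their counts outside B cells. No B cell marker was at 0 at 3-week in any of these 3 lineages. The part of B cell RNA in the falls of Ly6d and Sox4 was not tested.

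The start regions of Igf2bp3 and Sox4, which fell together in B and T cells, are shown with that of Cmss1, which went the other way, to let the regulatory sequence be compared. Each runs from 250 bases before to 50 after the start of the gene, 5′ to 3′ on the gene's strand (RefSeq, GRCm38.p6), and capitals mark matches on either strand to 4 core promoter motifs. These were the box bound by NF-Y, spelled CCAAT; the box bound by the TATA-binding protein, spelled TATAAA; the box bound by Sp1, spelled GGGCGG; and the cAMP response element, spelled TGACGTCA.
Igf2bp3 (chr6:49214905-49215204, minus strand): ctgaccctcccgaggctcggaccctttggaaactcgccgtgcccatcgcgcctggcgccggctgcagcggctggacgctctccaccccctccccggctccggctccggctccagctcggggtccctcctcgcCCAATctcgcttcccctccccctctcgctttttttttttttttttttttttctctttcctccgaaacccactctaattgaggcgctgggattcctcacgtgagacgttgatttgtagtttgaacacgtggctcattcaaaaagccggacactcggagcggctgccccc
Sox4 (chr13:28953650-28953949, minus strand): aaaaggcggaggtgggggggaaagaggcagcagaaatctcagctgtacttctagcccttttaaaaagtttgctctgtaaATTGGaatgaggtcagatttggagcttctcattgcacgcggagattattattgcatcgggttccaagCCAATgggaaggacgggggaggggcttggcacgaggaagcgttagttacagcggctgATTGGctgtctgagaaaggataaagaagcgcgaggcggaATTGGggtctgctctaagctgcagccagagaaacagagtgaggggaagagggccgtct
Cmss1 (chr16:57606818-57607117, minus strand): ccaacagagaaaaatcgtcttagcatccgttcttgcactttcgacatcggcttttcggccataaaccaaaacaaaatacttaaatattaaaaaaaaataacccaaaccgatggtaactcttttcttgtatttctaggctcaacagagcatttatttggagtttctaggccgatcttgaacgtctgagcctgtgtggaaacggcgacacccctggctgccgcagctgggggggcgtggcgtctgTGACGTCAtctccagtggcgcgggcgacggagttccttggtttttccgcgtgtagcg
The Igf2bp3 region held 1 CCAAT match and the Sox4 region 4, and 37.4% of all 32851 start regions hold at least 1. The Cmss1 region held 1 cAMP response element, a motif found in 1.79% of them, and no CCAAT match. TATA and GC box letters, in 13.6% and 35.7% of start regions, were in none of the 3. These matches describe the letters in this window and nothing about the factors that bind there.

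Cmss1 (chromosome 16, 57302000 to 57606864, minus strand), linked to ribosome assembly, was near 2-fold higher in every lineage. It was at 334 and 663 CPM in B cells (ratio 1.99, interval 1.9 to 2.07), 371 and 753 in T cells (2.03, interval 1.94 to 2.13), 335 and 706 in NK cells (2.11, interval 1.94 to 2.29) and 297 and 501 in Csf1r-positive cells (1.69, interval 1.54 to 1.85). It rose in T and NK cells by the rule. High-C1q macrophages had 218 and 410 CPM, a ratio of 1.88, so the difference ran through every class of the 2 libraries. The level was not graded by age: at 1-week Cmss1 was at 690 CPM in B cells, 772 in T cells and 1191 in Csf1r-positive cells, above 3-week, and at newborn it was at 178, 250 and 131 CPM. Filip1l lies within the Cmss1 locus on the other strand, and the sources used here do not say whether counting used strand; Filip1l itself was at 150 and 216 CPM in B cells.

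Of the 6965 genes measured in all 4 lineages, 91 (1.31%) had intervals that excluded 1 on the same side in all 4, whatever the size; 14 of them were past 2-fold in at least 1 lineage, and Cd79a and C1qa among them are genes of the rules. The 43 higher genes (0.617%) included 9 ribosomal protein genes, Fos, a subunit of the AP-1 transcription factor, Tsc22d3, a glucocorticoid-induced leucine zipper protein, Klf6 and Il4ra. Also among them were the macrophage marker Apoe, the monocyte marker Ms4a6c, the chemokine gene Ccl6, AY036118 and the predicted gene Gm42418. The part of RNA of other cells in this set was not tested. In high-C1q macrophages the log2 ratios of Fos, Tsc22d3, Klf6 and Il4ra were 0.16, -0.036, 0.079 and 0.23. Fos was at 166 and 302 CPM in B cells, 124 and 186 in T cells, 112 and 227 in NK cells and 925 and 1290 in Csf1r-positive cells, and it rose in NK cells by the rule. The 48 lower genes (0.689%) included 8 mitochondrially encoded genes, Bach2, a repressor of lymphocyte effector genes, Satb1, Nfkbia, which holds back NF-kappaB, and Hilpda, a hypoxia-inducible lipid droplet protein. Bach2 had log2 ratios of -0.30, -0.51, -0.34 and -0.57 in B, T, NK and Csf1r-positive cells, and -0.66 in high-C1q macrophages. Of the 91 genes, 77 were short of 2-fold in every lineage.

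**Figure D3:**
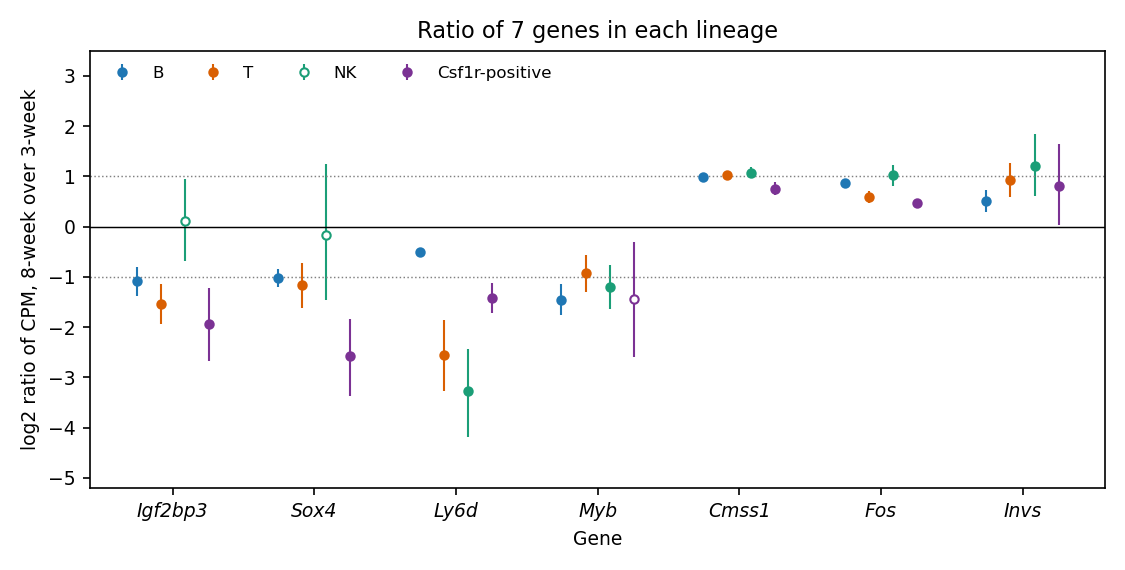
Points are log2 ratios of CPM (8-week over 3-week) of 7 genes in the 4 lineages, bars 95% Poisson intervals, open points lineages where the gene was under 10 CPM in both libraries, and dotted lines 2-fold. Igf2bp3 was lower in B, T and Csf1r-positive cells and near 0 in NK cells (0.10), while Cmss1 lay between 0.75 and 1.07 in all 4.

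**Figure D4:**
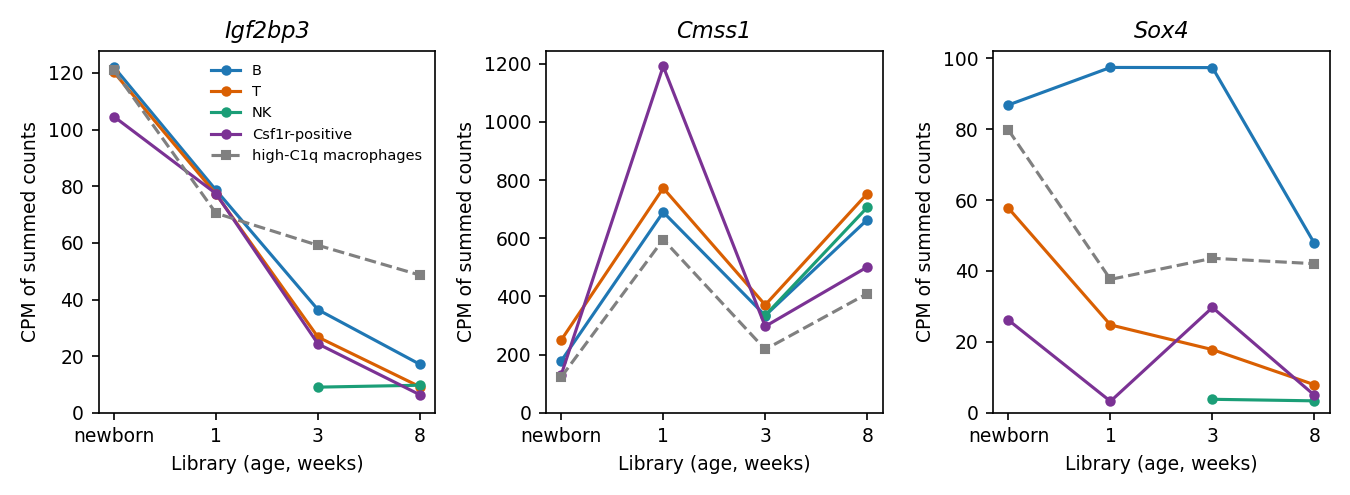
Lines give CPM of summed counts of Igf2bp3, Cmss1 and Sox4 at newborn, 1, 3 and 8 weeks in 4 lineages and in high-C1q macrophages (dashed); NK cells are shown from 3 weeks because the earlier libraries held 2 and 15. Igf2bp3 went down at each step in B cells (122, 78.6, 36.4 and 17.1 CPM), while Cmss1 was highest at 1-week in each class shown there.

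In B cells some genes of immature cells fell, though by less than the haemoglobin genes described below, Vpreb1 included. Of 7 measured genes of the B cell precursor list, 4 fell (0.62% of all measured genes did), 0 rose and 3 were short of 2-fold, and the list median was -1.03 on the log2 scale beside -0.03 for all measured genes in B cells. The intervals of all 7 lay below 1. Without shared barcodes 4 of 7 fell, and without each gene's top barcode 3 of 6.

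Vpreb1, part of the surrogate light chain of the pre-B cell receptor, was at 4.69, 456, 11.8 and 0.531 CPM in B cells from newborn to 8-week. Its 124 UMIs at 3-week lay in 16 of 1640 cells and its 4 at 8-week in 4 of 1065, and it was 22.2-fold lower (interval 8.46 to 82.8). Myb (chromosome 10, 21124935 to 21160984, minus strand), a transcription factor of proliferating progenitors, fell from 41.7 to 15.3 CPM, 2.74-fold (interval 2.22 to 3.39), after 96.6 CPM at 1-week. Akap12 (chromosome 10, 4266380 to 4359470, plus strand), a scaffold for protein kinase A, fell from 116 to 47.4 CPM, 2.45-fold (interval 2.18 to 2.77), and was seen in 447 and 150 cells. Vpreb1 was thus carried by a handful of cells, while at 3-week Myb was seen in 194 cells and Sox4 in 294.

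Other genes that fell in B cells, named after their values were seen, were seen in 74 to 527 cells at 3-week. Atp1b1, a subunit of the sodium pump, was at 102 and 43.0 CPM in 401 and 144 cells, Fam129c at 99.1 and 41.8 CPM in 527 and 172, and Sox5, a transcription factor, at 120 and 58.9 CPM in 342 and 119. Myl4, a myosin light chain, was at 48.8 and 17.2 CPM in 232 and 83 cells, and Bst1, a surface enzyme of B cell precursors, at 11.8 and 4.51 CPM in 100 and 26. Reln, a secreted glycoprotein best known from the brain, was at 29.4 and 4.25 CPM with 309 UMIs in 74 cells and 32 in 11. Myb was also lower in NK cells, at 41.5 and 18.1 CPM (2.29-fold, interval 1.69 to 3.11), and in T cells, at 24.0 and 12.6 CPM (1.90-fold lower, interval 1.48 to 2.45), and B and NK cells differed by less than counting error: the log2 ratio of ratios was -0.25 (interval -0.76 to 0.27) for B against NK.

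Mature B cell genes moved little. Of 15 measured members of that list 0 rose and 0 fell, with a median of 0.17, and of 10 MHC class II genes 0 passed 2-fold although the intervals of all 10 lay above 1 (median 0.24). Of 14 measured cell cycle genes in B cells 2 fell (Birc5 and Cdk1), 0 rose and 12 intervals lay below 1, with a median of -0.58; without shared barcodes 2 of 11 fell and the median was -0.31, and without each gene's top barcode 5 of 13 fell. After thinning, 2.74% of B cells at 3-week and 2.72% at 8-week had a UMI of Mki67, Top2a, Birc5, Cdk1 or Ccnb2, against 15.3% at 1-week. In T cells 0 of 16 measured cell cycle genes passed 2-fold and 12 intervals lay below 1, with a median of -0.43 (-0.10 without shared barcodes).

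Rises in B cells rested on few cells. Jchain, which joins secreted IgA and IgM, was at 1.05 and 279 CPM, but its 2104 UMIs at 8-week lay in 8 cells with 42.2% in 1, and Igha, the IgA heavy chain, had 5653 UMIs in 36 cells, 42.3% in 1. Of 23 measured interferon response genes 3 rose, Ifit3, Rsad2 and Slfn5, yet 72.7% of Rsad2 UMIs at 8-week came from 1 cell and 0 of the list rose without each gene's top barcode. Mast cell protease gene Mcpt2 had 557 UMIs in B cells at 3-week, 99.6% of them in 1 cell. Arhgef12, an activator of RhoA, was more evenly carried, at 9.22 and 19.5 CPM in 81 and 97 cells (2.11-fold, interval 1.63 to 2.76), and was 1.99-fold higher without shared barcodes. C77080, named by the same rule for genes that differed between lineages, had 88.3% of its 8-week UMIs in 1 cell. Haemoglobin genes fell in B cells, 4 of 4 measured, with Hbb-bs at 1205 and 6.77 CPM and 51.1% of the 3-week UMIs in 1 cell. Hbb-bs was also lower in T cells, at 10.6 and 1.93 CPM, and Csf1r-positive cells, at 12.7 and 1.65 CPM, whereas NK cells had 24.3 and 1193 CPM with 99.7% of the latter in 1 cell.

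T cells had the fewest genes past 2-fold in the main analysis, though not in every setting. After thinning 168 genes were higher and 74 lower in T cells, against 75 and 130 in B cells. Klf9 (chromosome 19, 23141226 to 23168134, plus strand), a transcription factor induced by glucocorticoid and thyroid hormone, rose from 14.2 to 34.8 CPM, 2.44-fold (interval 1.92 to 3.15), and was seen in 63 cells at 3-week and 221 at 8-week. Its log2 ratio of ratios was 0.72 (interval 0.18 to 1.27) against NK cells and 1.13 (interval 0.67 to 1.60) against Csf1r-positive cells, and B against T was -0.85 (interval -1.28 to -0.42). After thinning, 1.94% (interval 1.04 to 3.3) and 4.27% (interval 3.08 to 5.74) of T cells had a Klf9 UMI. In NK cells the shares were 2.58% (interval 1.04 to 5.25) and 5.88% (interval 4.13 to 8.09), so the difference from NK cells was not seen at equal depth. Klf9 was the 1 of 14 measured glucocorticoid response genes to pass 2-fold in T cells. The cytokine gene Il2 was at 4.97 and 11.0 CPM (2.22-fold, interval 1.46 to 3.47) in 23 and 80 cells, and Il4 at 10.8 and 22.4 CPM in 29 and 79 cells; Il4 was 1.98-fold higher without shared barcodes, just short of the rule. Among T cells with Cd8a or Cd8b1 and no Cd4 UMI, Il4 had a log2 ratio of -0.084.

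Genes that fell in T cells included Igf2bp3 and Sox4 and 2 with roles in cell shape or surface sugars. Tubb2a, a beta-tubulin, went from 90.0 to 35.8 CPM, 2.51-fold lower (interval 2.18 to 2.89), in 164 and 144 cells, and was at 170 CPM at 1-week. St8sia6, a sialyltransferase, went from 74.6 to 37.0 CPM, 2.01-fold lower (interval 1.74 to 2.33). S1pr5, a sphingosine-1-phosphate receptor that guides egress, was at 11.0 and 3.96 CPM, with 64 and 37 UMIs; it was the 1 member of the mature NK cell list to fall in T cells.

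Naive T cell genes were lower by small amounts. Of 12 measured members 0 passed 2-fold, but 10 had intervals below 1, and the list median was -0.42 in T cells beside 0.04 for all measured genes; in T cells with Cd8 and no Cd4 UMI it was 0.015. The interferon response list had a like pattern in T cells, with 0 of 24 past 2-fold, 15 intervals below 1 and a median of -0.32, while its median was 0.12, 0.16 and 0.28 in B, NK and Csf1r-positive cells. That pattern did not hold in every setting, as the median was 0.26 in T cells with Cd4 and no Cd8 UMI and -0.16 in B cells after thinning. The CD8 and CD4 shares of the T lineage had overlapping intervals at both ages: after thinning, 27.5% (interval 24.2 to 31.1) and 24.6% (interval 21.9 to 27.4) had a Cd8a or Cd8b1 UMI and no Cd4 UMI, 5.38% (interval 3.8 to 7.37) and 6.97% (interval 5.44 to 8.77) the reverse, and the remainder almost all neither. At this depth a cell without either UMI is not shown to lack the protein.

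RNA of other cells was among the rises in T cells. Gh, the growth hormone gene of the pituitary, was at 32.7 and 187 CPM in T cells, with 54.2% of its 1746 UMIs at 8-week in 1 cell, and the lysozyme gene Lyz2 of myeloid cells at 86.4 and 367 CPM in 113 and 296 cells. Lyz2 was at 101 and 352 CPM in NK cells and at 8528 and 15908 in Csf1r-positive cells. Of the T cells, 130 of 669 at 3-week and 273 of 961 at 8-week matched 2 or more lineage rules. Without such barcodes 42 of 8190 measured genes fell in T cells, against 21 of 8314 with them. The part of myeloid RNA in these rises was not tested. By the rule for lineage-differing genes, Garnl3, a GTPase activator, was the T cell gene named: it rose from 7.37 to 15.6 CPM (2.12-fold, interval 1.5 to 3.05) in 28 and 75 cells, with log2 ratios of ratios of 2.45 (interval 1.23 to 3.66) against NK cells and 1.28 (interval 0.13 to 2.43) against Csf1r-positive cells. In T cells with Cd8 and no Cd4 UMI its log2 ratio was -0.014, on 5 and 7 UMIs.

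NK cells gained more genes than they lost. S1pr1 (sphingosine-1-phosphate receptor, needed for exit from tissue) fell from 28.2 to 9.74 CPM, 2.89-fold (interval 1.95 to 4.31), with 59 UMIs in 39 of 271 cells and 49 in 40 of 595. The log2 ratio of ratios was 1.46 (interval 0.91 to 2.02) for B against NK and 1.12 (interval 0.56 to 1.67) for T against NK. After thinning, 2.95% (interval 1.28 to 5.73) of NK cells at 3-week and 1.85% (interval 0.926 to 3.28) at 8-week had an S1pr1 UMI. The shares were 29.3% (interval 25.9 to 32.9) and 19.4% (interval 16.9 to 22) in T cells and 20.8% and 19.5% in B cells. At equal depth NK cells were thus not set apart from T cells. S1pr1 was the 1 of 16 measured egress and homing genes that fell in NK cells, and 0 of them rose.

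Kit, a receptor of immature NK cells and innate lymphoid cells, rose from 3.34 to 13.5 CPM, 4.05-fold (interval 1.86 to 10.4), with 7 UMIs in 5 cells and 68 in 36. It was the 1 of 17 measured genes of the immature NK and type 1 innate lymphoid list to pass 2-fold, and 9 of the 17 had intervals above 1 (median 0.34 beside 0.06 for all). None of the 18 mature NK cell genes passed 2-fold (median 0.21). Tcrg-C4, a T cell receptor gamma constant region, rose from 18.1 to 48.7 CPM in 21 and 110 cells, and Apol7b, an apolipoprotein L gene, from 0.477 CPM (1 UMI) to 12.9 CPM (65 UMIs in 39 cells), a ratio of 27.1 (interval 4.69 to 1086). Nr3c2, the mineralocorticoid receptor, rose from 2.39 to 13.7 CPM in 5 and 25 cells; it was the 1 of 7 measured hormone receptor genes to pass 2-fold.

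By the lineage-differing rule, 17 of 8443 measured genes rose and 10 fell in NK cells with a ratio unlike that of each other lineage. The counts were 5 and 2 of 8382 in B cells, 2 and 3 of 8314 in T cells and 10 and 247 of 8607 in Csf1r-positive cells. Without shared barcodes 118 genes met this rule over all 4 lineages. Pld1, a phospholipase, rose from 13.8 to 34.2 CPM (2.47-fold, interval 1.66 to 3.8) in 24 and 124 cells, and Sclt1, a centriole protein, from 15.3 to 34.8 CPM (2.28-fold, interval 1.56 to 3.43) in 25 and 110 cells. Nr2c1, an orphan nuclear receptor, went from 4.30 to 12.1 CPM, the histone gene Hist2h2ac from 3.34 to 12.1 CPM, Tbccd1 from 3.82 to 10.7 CPM and the zinc finger gene Zmat4 from 2.39 to 11.9 CPM. After thinning, Tbccd1 had a log2 ratio of -0.55, on 4 and 6 UMIs. Among falls, Fbxw17 went from 13.8 to 6.16 CPM. Mgl2, a lectin of dendritic cells and macrophages, fell from 38.7 to 1.99 CPM, but its 81 UMIs at 3-week lay in 2 cells, and those of Pltp in 7 and of the cyclin gene Ccnd1 in 7.

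Cell cycle genes in NK cells were mixed. Of 17 measured members 4 rose and 0 fell, where 1.31% and 0.592% of all measured genes in NK cells did. Of their intervals 8 lay above 1 and 4 below, and the median was 0.33. Mki67 was at 21.95 and 55.1 CPM in 14 and 25 cells. Without shared barcodes 2 rose, and without each gene's top barcode 2 of 14 did. After thinning each cell 0 rose and the median was -0.15. The share of NK cells with a UMI of 5 such genes after thinning was 5.17% (interval 2.85 to 8.52) and 5.38% (interval 3.71 to 7.51), and the intervals overlapped. Of 10 measured inflammatory cytokine and chemokine genes 3 rose in NK cells (Ccl9, Il1b and Cxcl2) and 1 fell (Cxcl10): Ccl9 went from 3.34 to 17.3 CPM and Il1b from 37.7 to 80.7 CPM. Of 11 measured classical monocyte genes 4 also rose in NK cells (F13a1, Fn1, Hp and Lyz2). Without each gene's top barcode 1 of 8 did. Of the 14 genes of the list 6 were at 0 at 3-week and none at 8-week, and the summed level was 1126 and 1721 CPM. The part of myeloid RNA in the rises of NK cells was not tested.

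In Csf1r-positive cells 6 classical monocyte genes rose, beside the larger share of cells with a UMI of 4 such genes given above (31.6% and 55.2%). Of 14 measured members of the list 6 rose (0.964% of all measured genes did), 0 fell and all 14 intervals lay above 1, with a median of 0.94 beside -0.07 for all measured genes. Without shared barcodes 4 of 14 rose and the median was 0.83.

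Vcan (chromosome 13, 89655312 to 89742509, minus strand), a proteoglycan of classical monocytes, rose from 6.82 to 95.1 CPM, 13.9-fold (interval 8.21 to 25.7), with 14 UMIs in 7 of 190 cells and 403 in 56 of 326. Ly6c2 (chromosome 15, 75108158 to 75111970, minus strand), the surface marker of these monocytes, rose from 219 to 581 CPM, 2.65-fold (interval 2.4 to 2.94), in 53 and 143 cells. F13a1, a clotting factor subunit, rose from 147 to 346 CPM, 2.35-fold (interval 2.07 to 2.67), and Chil3, a chitinase-like secreted protein, from 182 to 740 CPM. Ccr2 (chromosome 9, 124101950 to 124113557, plus strand), the chemokine receptor for exit from the bone marrow, was at 297 and 652 CPM, 2.20-fold higher (interval 2.01 to 2.4), and 1.95-fold higher without shared barcodes. For Chil3, 67.0% of the 3-week UMIs came from 1 cell, and no gene of the list was at 0 in either library.

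Non-classical monocyte genes were lower by small amounts. Of 15 measured members 0 passed 2-fold, 12 intervals lay below 1, and the median was -0.26. Ace was at 258 and 210 CPM, Treml4 at 216 and 168 and Cd300e at 112 and 94.6 CPM. In summed counts the Ly6c2 ratio differed from that of the other lineages. Log2 ratios of ratios against Csf1r-positive cells were -1.49 (interval -1.73 to -1.24) for B, -1.53 (interval -1.69 to -1.37) for T and -0.95 (interval -1.17 to -0.73) for NK cells. After thinning, 14.2% (interval 9.58 to 20) and 26.1% (interval 21.4 to 31.2) of Csf1r-positive cells had a Ly6c2 UMI. The shares were 12.2% (interval 8.53 to 16.7) and 20% (interval 16.9 to 23.4) in NK cells. They were 2.07% and 1.97% in B and 26.3% and 30.5% in T cells. NK cells were thus not clearly set apart at equal depth.

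Other genes rose in these cells and were named after their values were seen. Emp1, a membrane protein, was at 2.92 and 25.9 CPM in 5 and 26 cells, Dpep2, a dipeptidase, at 8.77 and 48.4 CPM in 16 and 81 cells, Adgrl3, an adhesion receptor, at 13.1 and 62.8 CPM, and the scavenger receptor Msr1 at 34.6 and 89.9 CPM in 37 and 136 cells. All 4 rose in all 3 settings. By the lineage-differing rule, P2ry14, a receptor for UDP-sugars, rose from 2.92 to 16.99 CPM (5.81-fold, interval 2.54 to 16.4) and Gpat3, an enzyme of lipid synthesis, from 6.33 to 17.5 CPM (2.76-fold, interval 1.52 to 5.42), both in all 3 settings. Smox, a spermine oxidase, was at 32.1 and 68.9 CPM and 1.92-fold higher without shared barcodes, and Ccr9 had 43 UMIs at 8-week in 4 cells.

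Many of the 483 falls in Csf1r-positive cells rested on a few unusual barcodes at 3-week. Of the 190 cells, 3 had 1713 to 19323 UMIs of pituitary hormone genes among 26751 to 75282 in all, and 1 had 9121 UMIs of neutrophil genes among 20275, and each of the 4 had 1 Csf1r UMI. Gh was at 9357 CPM at 3-week, 98.7% of it from 1 cell, and 119 CPM at 8-week, and 140 and 120 CPM without shared barcodes. All 8 measured hormone genes and 5 of 6 neutrophil genes fell. The named genes Nnat and Chgb, both of endocrine cells, fell from 639 to 4.48 and from 183 to 0.944 CPM, and without shared barcodes were at 8.64 and 4.53, and 0.576 and 0.954 CPM. Ngp, Camp and Ltf, granule genes of neutrophils, had 99.3%, 99.8% and 99.4% of their 3-week UMIs in 1 cell. Ly6h, with 183 UMIs in 6 cells at 3-week, had 0 at 8-week. Leaving out the 4 cells at 3-week and 4 at 8-week with 1% or more of hormone, haemoglobin or neutrophil UMIs left 264 lower genes, 236 of them among the 483.

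Most cell cycle genes fell in Csf1r-positive cells, on few cells. Of 20 measured members 16 fell (5.61% of all measured genes did), 0 rose and 19 intervals lay below 1, with a median of -2.80 beside -0.07 for all measured genes. After thinning 6 of 14 measured members fell, and as a mean of per-cell CPM 6 of 13; without shared barcodes 8 of 14 fell and the median was -1.32, and without each gene's top barcode 15 of 19 fell. Top2a, a DNA topoisomerase, was at 112 and 10.6 CPM in 17 and 16 cells, 10.6-fold lower (interval 7.64 to 14.9), and at 36.8 and 10.0 CPM without shared barcodes. Mki67, the proliferation marker, was at 81.8 and 18.2 CPM in 21 and 26 cells, and at 41.5 and 18.4 CPM without shared barcodes. The share of Csf1r-positive cells with a UMI of 5 such genes after thinning was 5.26% (interval 2.55 to 9.47) and 3.68% (interval 1.92 to 6.34). A difference in the share of dividing cells was not detectable at these numbers.

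Inflammatory cytokine and chemokine genes were mixed in Csf1r-positive cells. Of 17 measured members 4 fell (Il1a, Ccl3, Cxcl9 and Cxcl10) and 0 rose, but 7 intervals lay above 1 against 8 below, and the summed level was 3826 and 3757 CPM; 5.61% of all measured genes fell. Cxcl10, an interferon-induced chemokine that draws T cells, was at 185 and 23.8 CPM, 7.77-fold lower (interval 6.22 to 9.77), in 20 and 25 cells, and Cxcl9 at 61.4 and 20.8 CPM in 10 and 12 cells. Gbp5, a guanylate-binding protein of the interferon-gamma response, was at 54.1 and 11.8 CPM in 27 and 29 cells. Of 23 measured members of the general interferon response list 0 passed 2-fold, with a median of 0.28.

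**Figure D5:**
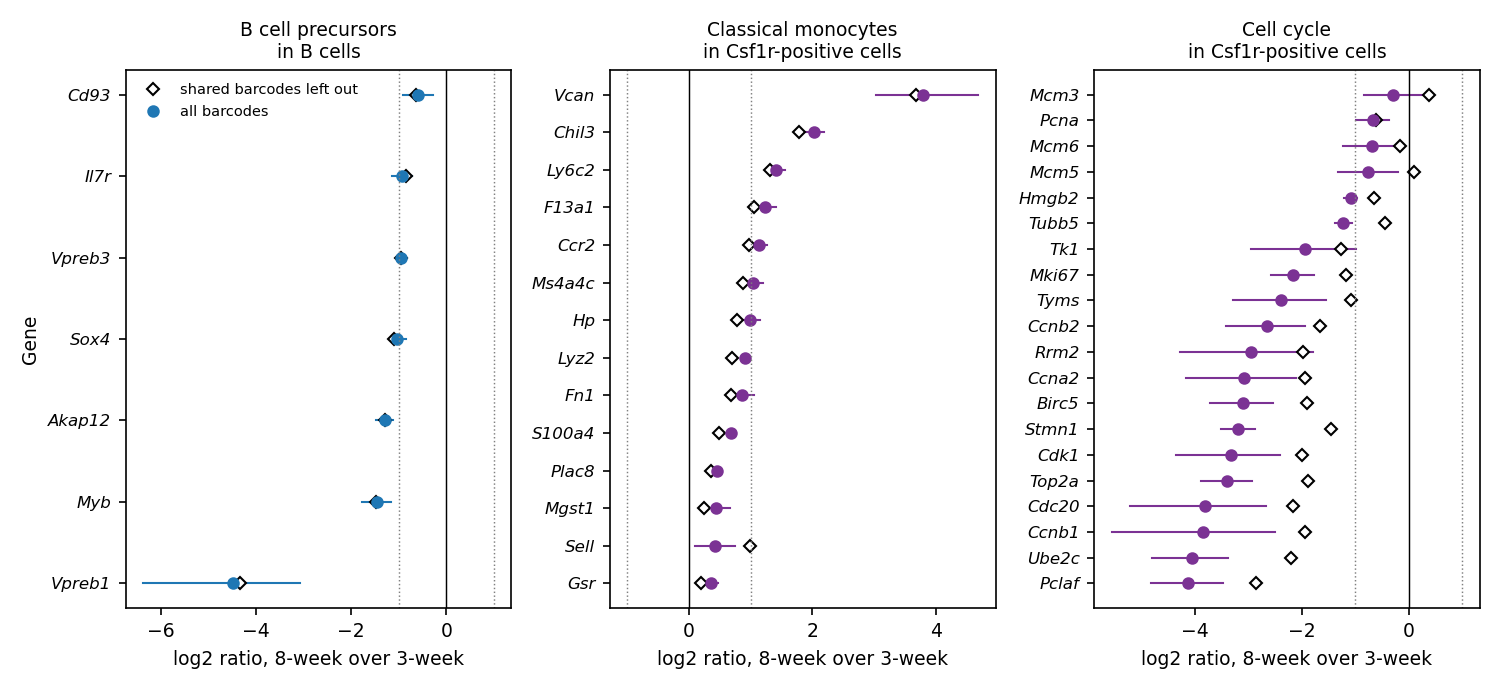
Filled points are log2 ratios of CPM (8-week over 3-week) of the measured members of 3 gene lists, lines 95% Poisson intervals, open diamonds the ratio without barcodes found in both libraries, and dotted lines 2-fold. B cell precursor genes in B cells and classical monocyte genes in Csf1r-positive cells lay on 1 side of 0 in both settings, while cell cycle genes in Csf1r-positive cells moved towards 0 without those barcodes (median -2.80 against -1.32).

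Stress and metabolic lists moved little in every lineage. Of the heat shock, glycolysis and oxidative phosphorylation lists, 0 members passed 2-fold in any of the 4 lineages. Medians of oxidative phosphorylation genes were -0.09, -0.11, -0.10 and -0.09 in B, T, NK and Csf1r-positive cells. Immediate-early genes, which respond to handling of cells as well as to signals, had medians of 0.24, 0.22, 0.05 and 0.02, with Ier3 the 1 of 22 to pass 2-fold in T cells and Fos the 1 of 21 in NK cells.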

How the data were processed

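Glands were digested with collagenase and DNase and libraries made with the 10x Genomics 3′ v2 kit, per the labels' protocols. Cell Ranger 7.1.0 and the mm10 build were used, per the submitters' processing notes. The deposited matrices hold whole-number UMI counts for 32285 genes, to which the authors applied no normalization as far as the values show; counting of introns and use of strand are not stated in the sources used here.

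Of a barcode present in both libraries, the copy with more UMIs was kept. Doublets were not removed in the main values; an alternative left out the highest Scrublet scores (scanpy 1.11.5) at 0.8% per 1000 barcodes. Counts were summed with Python 3.11.15, numpy 2.4.6 and pandas 2.3.3, and intervals computed with scipy 1.17.1; a count of 0 was set to a floor of 3 counts per library and lineage. Ratios of ratios had 0.5 added to each count. The script was tested on simulated data. Thinning drew 1500 UMIs per cell.

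Shared genes were those past 2-fold the same way in at least 3 of 4 lineages. Genes called lineage-differing were past 2-fold in 1 lineage with a ratio at least 2-fold from each other lineage and an interval excluding 1. Named were up to 12 shared genes each way, up to 6 lineage-differing genes each way per lineage, both ordered by the interval bound nearest 1, and up to 4 members of a list, or those a count needs. Rule genes, technical classes, receptor segments, predicted and sex-linked genes, and genes at under 1 part in 5 of another lineage's level were left out of the first 2 sets; a gene that the rule names is not reported here. The members and the 40 gene lists were chosen with earlier results of these data known, and other genes were named after their values were seen (among them Cmss1, Il2, Il4, Tubb2a, St8sia6, Apol7b, Tcrg-C4, Gbp5 and the genes of small shifts). Gene positions are those of GENCODE for mm10, and start regions those of RefSeq for GRCm38.p6. Replicates were absent, so n was 1 library per age.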

Additional observations from a re-analysis of the deposited data

Results flagged for a closer look

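A few genes went past 2-fold in opposite directions in 2 lineages. These differences were not tested between ages, since each age has 1 library, and the log2 ratios of ratios below carry counting error only. Of the cell cycle list, 4 genes rose in NK cells and fell in Csf1r-positive cells: NK against Csf1r-positive cells differed by 6.2 for Ube2c, 5.08 for Ccna2, 3.48 for Mki67 and 4.55 for Birc5, and Birc5 also by 2.49 for NK against B cells. At 3-week Ube2c was seen in 3 NK cells and 10 Csf1r-positive cells and Ccna2 in 3 and 9. The NK direction did not hold after thinning, where 0 of 13 measured members of the list rose, the log2 ratio of Birc5 was -0.81 and the list median -0.15.

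The interferon-induced chemokine gene Cxcl9 rose in B and T cells and Cxcl10 in B cells, while both fell in Csf1r-positive cells and Cxcl10 also fell in NK cells. Cxcl9 differed by 4.98 for B and 3.68 for T against Csf1r-positive cells, and Cxcl10 by 5.1 for B against Csf1r-positive cells and 3.97 for B against NK cells. Single cells gave 88.8% of the 8-week Cxcl9 UMIs in B cells, 96.9% in T cells, and 81.1% of the Cxcl10 UMIs in B cells, and none of these 3 rises was past 2-fold without the top barcode.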

How the results depend on the processing

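Of 1606 recomputed medians of gene lists (99 medians), 173 changed sign, in 58 medians. The medians of B cell precursor and mature B cell genes in B cells, of classical monocyte, non-classical monocyte and cell cycle genes in Csf1r-positive cells, and of immature and mature NK cell genes in NK cells kept their sign in every setting run. Among the medians that turned were those of cell cycle genes in NK cells (-0.11 with a C1q sum under 3, -0.15 after thinning, -0.084 as a mean of per-cell CPM and -0.19 without cycling barcodes), of naive T cell genes in Cd8-only T cells (0.015), and of interferon response genes in Cd4-only T cells (0.26), in Csf1r-positive cells with a C1q sum under 3 (-0.12) and in B cells under 4 settings (-0.043 to -0.17). Of 1356 recomputed values of 80 named genes, 20 turned the direction of a called gene, several of them on under 10 UMIs a library. No ratio was taken where both libraries were at or under 3 UMIs, or where the floor put for a 0 would turn the sign of the counts. No paired analysis was possible because each age has 1 library and no shared replicate number. The causes of the changes below were not tested unless the setting itself tests fewer genes or cells.

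Without a CPM minimum, genes higher and lower numbered 405 and 265 in B, 264 and 217 in T, 258 and 162 in NK and 149 and 1491 in Csf1r-positive cells, shared genes 11 and 21, differing genes 466 (296 in the main analysis) and B precursor falls 10. With a minimum of 50 CPM these were 3 and 13, 4 and 2, 11 and 3, 22 and 78, 1 shared lower, 55 differing, 2 B precursor falls and 8 cell cycle falls in Csf1r-positive cells. At 1.5-fold they were 136 and 189, 227 and 118, 339 and 165, 226 and 903, 11 and 11 shared, 474 differing, 7 B precursor falls and 10 classical monocyte rises. At 3-fold they were 9 and 12, 11 and 6, 38 and 15, 25 and 300, 1 shared lower, 185 differing, 1 B precursor fall and 2 classical monocyte rises.

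After thinning to 1500 UMIs, 75 and 130 genes were higher and lower in B and 168 and 74 in T, 108 lower in NK, 231 lower in Csf1r-positive cells and 93 differing, with 7 B precursor and 6 cell cycle falls. Log2 ratios that turned were Birc5 -0.81, Ccnd1 0.87 and Tbccd1 -0.55 in NK and Ly6d 0.028 in Csf1r-positive cells. As shares of thinned cells with a UMI, those that turned were Ccnd1 0.87 and Tbccd1 -0.55 in NK, Mki67 0.028 and Sox4 0.22 in Csf1r-positive cells and Rsad2 -0.38 in B. As a mean of per-cell CPM, 16 genes were higher in B, 257 lower in Csf1r-positive cells and 1 shared higher, with 7 B precursor and 6 cell cycle falls. Lineage rules applied after thinning gave shares at 3-week and 8-week of 51.2% and 29.4% for B, 17.9% and 22.9% for T, 6.91% and 14.4% for NK and 4.15% and 5.69% for Csf1r-positive cells.

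Without shared barcodes, 183 genes were lower in Csf1r-positive cells, 118 differed, 8 cell cycle genes fell, and Chgb (0.73), Ly6d (1.66) and Sox4 (0.58) turned. Without each gene's top barcode, 15 genes were higher in B, 21 lower in NK, 315 lower in Csf1r-positive cells, 180 differing, 1 shared higher and 2 shared lower. Without hormone-, haemoglobin- or neutrophil-rich barcodes, 264 were lower in Csf1r-positive cells, 173 differing and 1 shared higher, and Chgb (0.85) turned. Without barcodes with a UMI of 5 cycling genes, 141 were higher in Csf1r-positive cells, 190 differing and 1 shared higher, 1 cell cycle gene fell (the setting itself removes the 5 genes' UMIs), B shares were 59.8% and 35.9%, and Ly6d (2.34) turned in Csf1r-positive cells and Rsad2 (-0.094) in B. These last 3 settings were added after the data had been seen.

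With a C1q sum under 3, 142 genes were higher and 192 lower in Csf1r-positive cells, 34 lower in T and 140 differing, 8 cell cycle genes fell, shares were 58.8% and 36.7% for B and 4.96% and 8.47% for Csf1r-positive cells, and Ly6d (1.89) and Sox4 (2.33) turned in Csf1r-positive cells. Without barcodes matching 2 or more rules, 42 genes were lower in T and 1 shared higher, T shares were 20.8% and 25.6%, and at 8-week NK cells were 20.65% and Csf1r-positive cells 12.1%. Cd4-only T cells gave 436 and 128 genes and 2 shared higher, and Cd8-only T cells 131 and 83, with Garnl3 (-0.014) and Il4 (-0.084) turned. Without the highest Scrublet scores, 87 genes were lower in B, 1 shared higher, and Jchain turned (-0.18). Without dendritic cell marker UMIs, 8 cell cycle genes fell in Csf1r-positive cells. With TMM factors 132 genes were higher in Csf1r-positive cells and 1 shared higher. The latter count was also 1 when centred on the median and with a minimum of 3000 UMIs. Without technical classes in the total, 44 genes were higher in B, 4 shared higher and 7 shared lower.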
